A study of Mus musculus with 6 samples.

Results

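Testosterone is made from cholesterol by a short chain of proteins, and 10 genes of that chain were followed here in mouse testis after 16 weeks of ethanol feeding. The genes were found by symbol among the 45777 genes of the deposited table, and all 10 were present: Scarb1, Star, Cyp11a1, Fdx1, Fdxr, Hsd3b1, Hsd3b6, Cyp17a1, Por and Hsd17b3. Total RNA was sequenced from testes of wild-type mice, with 3 libraries from mice given an ethanol liquid diet and 3 from mice given the control version of that diet, the LDC liquid diet, at 10 ml a day per animal for 16 weeks. Mice were first accustomed to the control liquid diet for 5 days. No source used here gives the strain, the age or the ethanol dose. The labels number the libraries 1 to 3 within a diet without saying whether each is a different mouse. The p-values therefore measure the spread between these samples alone, and that spread may be technical.

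In the testis the chain that makes testosterone works in Leydig cells, which lie between the seminiferous tubules and answer to luteinizing hormone. Levels in whole testis do not show which cells the RNA of each gene came from. Cholesterol enters through the lipoprotein receptor encoded by Scarb1 and is carried to the inner mitochondrial membrane by Star. There the P450 enzyme Cyp11a1 cuts off its side chain to give pregnenolone, with electrons passed from Fdxr through Fdx1. Outside the mitochondrion the 3β-hydroxysteroid dehydrogenases Hsd3b1 and Hsd3b6, the P450 enzyme Cyp17a1 with its electron donor Por, and at the end Hsd17b3 complete testosterone. In the mouse Hsd3b6 is known as the form of adult Leydig cells, while Hsd3b1 is present in fetal and adult ones.

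The promoters of 4 members are shown because these genes stood furthest apart between the diets without overlap, or, for Hsd3b1, because it is the close paralog of one that did. Each runs 5′ to 3′ along the gene's strand over 300 bases, from 250 before to 50 from the RefSeq start on, in the GRCm38.p6 build that underlies mm10. Capitals mark the letters AGGTCA, the half-site of nuclear receptors, CAAGGNNA, the core bound by steroidogenic factor 1 (the product of Nr5a1), and TATAA, each searched on both strands with N as any base. An AGGTCA can lie inside a CAAGGNNA, and TATAA read on both strands overlaps itself.
Cyp11a1, chr9:58014702-58015001, plus strand: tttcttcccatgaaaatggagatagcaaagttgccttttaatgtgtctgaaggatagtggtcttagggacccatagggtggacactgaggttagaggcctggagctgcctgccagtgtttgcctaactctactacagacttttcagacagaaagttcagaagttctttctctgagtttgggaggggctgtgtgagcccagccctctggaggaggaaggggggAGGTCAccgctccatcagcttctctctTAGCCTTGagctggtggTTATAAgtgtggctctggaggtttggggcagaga
Hsd17b3, chr13:64089152-64089451, minus strand: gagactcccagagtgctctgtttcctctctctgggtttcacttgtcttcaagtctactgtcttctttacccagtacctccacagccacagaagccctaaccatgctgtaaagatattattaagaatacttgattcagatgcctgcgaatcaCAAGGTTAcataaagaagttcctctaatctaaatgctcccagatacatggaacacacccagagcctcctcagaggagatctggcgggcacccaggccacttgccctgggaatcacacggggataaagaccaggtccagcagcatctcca
Hsd3b1, chr3:98859745-98860044, minus strand: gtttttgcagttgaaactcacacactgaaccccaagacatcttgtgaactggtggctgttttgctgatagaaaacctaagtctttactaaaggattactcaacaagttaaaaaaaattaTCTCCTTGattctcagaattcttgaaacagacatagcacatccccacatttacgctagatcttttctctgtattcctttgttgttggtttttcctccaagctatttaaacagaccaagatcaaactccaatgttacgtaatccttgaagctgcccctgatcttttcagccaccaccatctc
Hsd3b6, chr3:98814394-98814693, minus strand: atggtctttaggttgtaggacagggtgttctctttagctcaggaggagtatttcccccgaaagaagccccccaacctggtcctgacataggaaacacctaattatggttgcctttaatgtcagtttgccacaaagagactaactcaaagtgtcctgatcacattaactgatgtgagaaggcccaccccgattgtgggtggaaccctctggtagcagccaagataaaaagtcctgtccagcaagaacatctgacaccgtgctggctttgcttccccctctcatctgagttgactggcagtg
The Cyp11a1 window held each of these motifs: an AGGTCA from 28 to 23 bases before the start, a CAAGGNNA on the other strand, read here as TAGCCTTG, from 1 base before the start to base 7, and a TATAA from base 18 to 22 that overlaps a TATAA of the other strand. This start is 1 of 2 listed for Cyp11a1, and the window of the other, further upstream, held none of these letters. Hsd17b3 held a CAAGGNNA from 99 to 92 bases before its start, and Hsd3b1 a CAAGGNNA on the other strand from 131 to 124 bases before it. The Hsd3b6 window held none of these letters. Of 32851 promoter windows of the same length, 16.3% held AGGTCA, 18.2% CAAGGNNA and 24.9% TATAA. RefSeq promoter sequences were matched for 7 of the 10 members.

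Library depth ranged from 38935654 to 47420249 counts, and germ cell markers such as Prm1, Tnp1 and Ddx4 were abundant in every library. The 7 Leydig cell markers summed to 1129 to 1213 TPM in controls and 1279 to 1414 TPM with ethanol. TPM is the length-scaled level that sums to the same total in each library. Of the 10 Sertoli cell markers all were detected, with sums of 1102 to 1259 and 1416 to 1555 TPM. Their log2 fold changes were above 0 for 8 and below 0 for 2, while 48.5% of all genes tested lay below 0. The 8 macrophage markers, all detected, summed to 68.1 to 80.2 and 80.3 to 89.9 TPM, with 7 log2 fold changes above 0 and 1 below. The 7 markers of peritubular myoid cells and stroma, all detected, summed to 101.5 to 109.3 TPM in controls and 123.1 to 145.9 TPM with ethanol, with no overlap and all 7 log2 fold changes above 0. The 5 endothelium markers, all detected, summed to 8.09 to 8.84 and 8.20 to 11.6 TPM, and the 4 globin genes, all detected, to 40.0 to 84.2 and 110.0 to 132.7 TPM. The 6 adipocyte markers, all detected, summed to 17 to 28.0 TPM in controls, 31.9 and 25.7 TPM in ethanol libraries 2 and 3, and 84.8 TPM in ethanol library 1. All 5 adrenal cortex markers were detected at trace levels, with sums of 1.53 to 3.28 and 1.54 to 2.27 TPM, and Lcn5, Ovch2 and Spint4 of the 6 epididymis markers were at 0 in every library. The part of these cell types in the results below was not tested.

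The members differed from control in both directions and by unequal amounts. In ethanol-fed testes Cyp11a1 stood at 40.5% of its control level, Cyp17a1 at 63.0% and Hsd17b3 at 79.4%, while Hsd3b6 stood at 146.5%, and Star, Scarb1 and Hsd3b1 lay within 12% of control. The electron carriers Fdx1, Fdxr and Por were each at 85.9 to 86.9% of control. By the quasi-likelihood test of edgeR, with p-values adjusted after Benjamini and Hochberg, 0 of the 10 members were called, as were 0% of all 25073 genes tested, of which 3343 had an unadjusted p under 0.05. In this bulk tissue, fewer Leydig cells and less RNA per Leydig cell cannot be told apart.

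At an unadjusted p under 0.05 by edgeR there were 5 lower members, Cyp11a1, Cyp17a1, Hsd17b3, Fdx1 and Fdxr, and 1 higher member, Hsd3b6. Among all genes 5.89% were lower and 7.45% higher by that rule. On TMM-scaled CPM, the reads of a gene relative to its library's scaled total, the 3 libraries of one diet lay wholly apart from the other 3 for 4 of 10 members, where this held for 18.8% of all genes. Of these, Cyp11a1, Hsd17b3 and Fdxr were lower with ethanol (9.01% of all genes) and Hsd3b6 was higher (9.76% of all genes). DESeq2 called 2 members, against 2.65% of the 13453 genes to which it gave an adjusted p. The 2 were Cyp11a1, lower (DESeq2 adjusted p = 0.0309; 1.23% of genes), and Hsd3b6, higher (DESeq2 adjusted p = 0.012; 1.42% of genes). DESeq2 also called cell type markers, all higher: 3 of 10 Sertoli, 2 of 7 myoid and stroma, 1 of 7 Leydig. It called 1 of 8 macrophage markers and 1 of 4 globin genes, higher too, and 0 in the other marker lists. On TMM-scaled CPM 5 of 10 Sertoli, 3 of 7 myoid and stroma and 2 of 7 Leydig markers were higher without overlap. All 4 globin genes were higher without overlap, and of 6 germ cell markers 1 was lower. The median log2 fold change of the members was -0.20, beside 0.0065 over all tested genes.

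**Figure D1:**
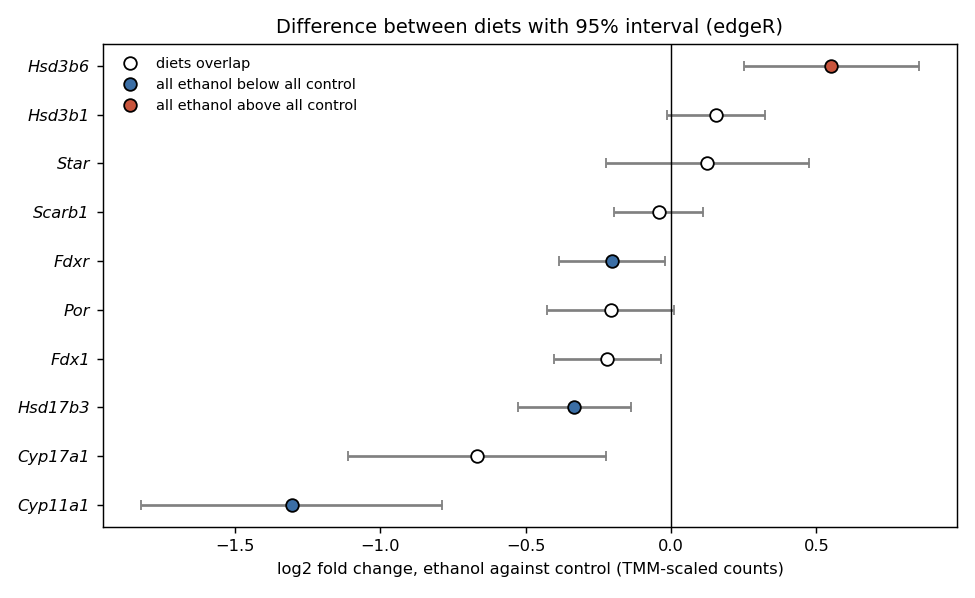
Log2 fold change of each member, ethanol against control, on TMM-scaled counts, with its 95% interval from edgeR before any adjustment for the number of genes (n = 3 libraries a diet). Cyp11a1 lies furthest below 0 at -1.30 and Hsd3b6 furthest above at 0.55, and filled points are the 4 members whose diets did not overlap.

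Cholesterol import came first in the chain and showed the smallest difference. Scarb1 (Gene ID 20778; chromosome 5, 125277087 to 125341094, minus strand), the receptor that takes up cholesteryl esters from high-density lipoprotein, was at 42.3, 50.9 and 40.4 TPM in control libraries 1, 2 and 3 and 45.5, 43.6 and 43.9 TPM in ethanol libraries 1, 2 and 3. In TPM the ethanol values sat inside the control range. On TMM-scaled CPM Scarb1 was at 55.7, 62.1 and 56.1 in controls and 55.1, 54.9 and 58.9 with ethanol. On that scale ethanol libraries 1 and 2 lay just below every control of Scarb1. Its log2 fold change was -0.04 (SE 0.07, 95% interval -0.20 to 0.11, edgeR adjusted p = 0.838). That interval, not adjusted for the number of genes, runs from 0.87-fold to 1.08-fold. The long noncoding gene Gm32701, at 24.9 TPM in controls, lies within the Scarb1 gene, and the strand setting of the counting is not given, so reads of the pair may be mixed.

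Star (Gene ID 20845; chromosome 8, 25808474 to 25815982, plus strand), whose product delivers cholesterol to Cyp11a1 and is induced acutely by hormone, was at 49.2, 52.7 and 57.7 TPM in controls and 56.6, 80.6 and 44.7 TPM with ethanol. The ethanol libraries held both the highest and the lowest value, in libraries 2 and 3. The log2 fold change was 0.12 (SE 0.16, 95% interval -0.22 to 0.47; edgeR adjusted p = 0.784), and without ethanol library 2 it was -0.14 (SE 0.10).

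Cyp11a1 (Gene ID 13070; chromosome 9, 57998024 to 58027031, plus strand), which opens steroid synthesis from cholesterol, had 3031, 3014 and 1765 reads in the control libraries and 869, 1449 and 635 in the ethanol libraries. On the length-scaled level this was 64.8, 73.3 and 40.0 TPM against 24.2, 34.96 and 14.99 TPM. Every ethanol library lay below every control library, and control library 3, the lowest control, lay closest to ethanol library 2. The log2 fold change was -1.30 (SE 0.24, 95% interval -1.82 to -0.79; edgeR adjusted p = 0.127), lower in 3 of 3 ethanol libraries. Leaving out any single library moved it between -1.64 and -1.08, and it passed the edgeR test in none of these 6 fits, with a lowest adjusted p of 0.113. Without ethanol library 1, the library with the most adipocyte RNA, it was -1.25 (SE 0.27).

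Its electron supply differed by much less. Fdx1 (Gene ID 14148; chromosome 9, 51943023 to 51963602, minus strand), the ferredoxin that reduces Cyp11a1, was at 43.1, 42.1 and 45.5 TPM in controls and 37.1, 35.8 and 39.7 TPM with ethanol. The diets did not overlap in TPM, while on TMM-scaled CPM control library 2 and ethanol library 3 met at 29.1. Fdxr (Gene ID 14149; chromosome 11, 115268024 to 115277101, minus strand), which reduces the ferredoxin, was at 26.3, 26.7 and 24.8 CPM in controls and 24.5, 21.5 and 21.5 CPM with ethanol, apart on that scale and overlapping in TPM. Log2 fold changes were -0.22 (SE 0.08; edgeR adjusted p = 0.292) for Fdx1 and -0.20 (SE 0.08; adjusted p = 0.323) for Fdxr.

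**Figure D2:**
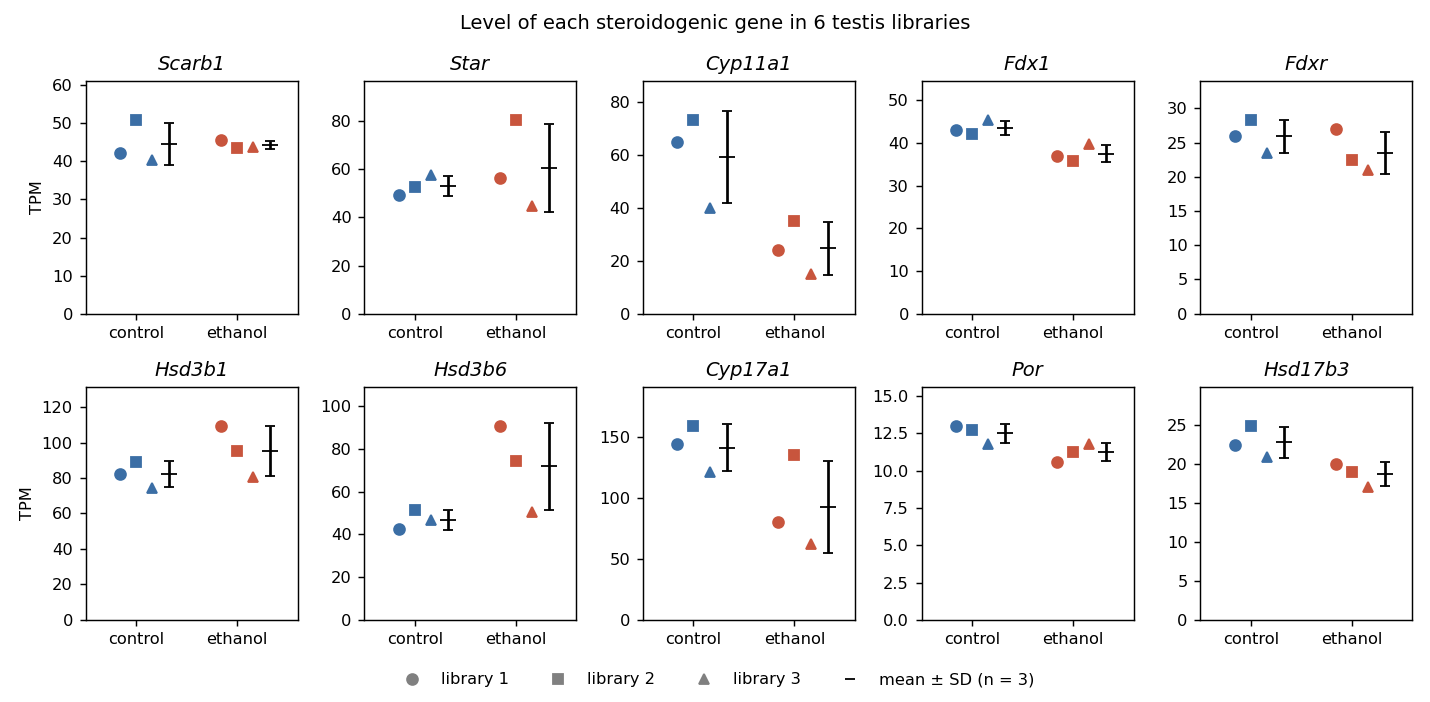
TPM of each member in the 6 libraries, each panel on its own axis from 0, with marker shapes for library numbers, blue for control and red for ethanol, and bars for the mean ± SD of 3 libraries. Cyp11a1 and Hsd17b3 are lower in every ethanol library than in any control, and in ethanol library 2 Cyp17a1 stays within the control range.

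The paralogs of the next step did not give the same result. Hsd3b1 (Gene ID 15492; chromosome 3, 98842356 to 98859794, minus strand), which turns pregnenolone into progesterone, was at 82.5, 89.3 and 74.6 TPM in controls and 109.4, 95.5 and 80.7 TPM with ethanol, with overlap. Its log2 fold change was 0.15 (SE 0.08; edgeR adjusted p = 0.416). Hsd3b6 (Gene ID 15497; chromosome 3, 98805504 to 98814443, minus strand) catalyses the same reaction and was at 41.0, 46.3 and 46.9 CPM in controls and 79.2, 68.2 and 49.2 CPM with ethanol. All ethanol libraries lay above all controls on this scale, library 3 only just, and in TPM ethanol library 3 at 50.5 fell below control library 2 at 51.4. The log2 fold change was 0.55 (SE 0.14, 95% interval 0.25 to 0.85; edgeR adjusted p = 0.157), higher in 3 of 3 ethanol libraries. It was 0.39 (SE 0.12) without ethanol library 1, where the adipocyte markers were highest, and 0.71 (SE 0.09; edgeR adjusted p = 0.0501) without ethanol library 3.

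Counts of these paralogs carry an uncertainty of their own. Over 1119 coding bases Hsd3b1 and Hsd3b6 were 90.0% identical, and the longest run of bases that their longest coding transcripts shared was 72. Hsd3b6 shared runs of up to 155 bases with Hsd3b3 and 147 with Hsd3b2, so the counting may have split reads between them. Both of those genes were near 0 here, at no more than 0.452 TPM in any library. The summed level of Hsd3b1 and Hsd3b6 was 128.9 ± 10.4 TPM in controls and 167.0 ± 34.5 TPM with ethanol (SD, n = 3).

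Cyp17a1 (Gene ID 13074; chromosome 19, 46667165 to 46673000, minus strand), the hydroxylase and lyase that turns progestins into androgens, was the most abundant member in controls, at 144.3, 159.2 and 121.0 TPM. With ethanol it was at 80.6, 135.2 and 62.1 TPM. Ethanol libraries 1 and 3 lay well below the controls, and library 2 within them. The log2 fold change was -0.67 (SE 0.20, 95% interval -1.11 to -0.22; edgeR adjusted p = 0.204). This value rests on ethanol library 2 more than on any other: without it the log2 fold change was -1.05 (SE 0.10) and passed (edgeR adjusted p = 0.0262), while without any other library it was between -0.74 and -0.48.

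Por (Gene ID 18984; chromosome 5, 135670040 to 135735326, plus strand), which passes electrons to Cyp17a1 and to the other microsomal P450 enzymes, was at 13.0, 12.7 and 11.8 TPM in controls and 10.6, 11.3 and 11.8 TPM with ethanol. The diets met at control library 3 and ethanol library 3, and the log2 fold change was -0.21 (SE 0.10; edgeR adjusted p = 0.405). Hsd17b3 (Gene ID 15487; chromosome 13, 64058274 to 64089262, minus strand), which reduces androstenedione to testosterone, was at 15.2, 15.6 and 14.8 CPM in controls and 12.3, 12.3 and 11.7 CPM with ethanol. The groups were tight and apart on that scale. With 478 to 711 reads a library and 3 libraries a diet, that tightness carries little information. In TPM the groups spread more, at 22.7 ± 1.99 in controls and 18.7 ± 1.49 with ethanol (SD, n = 3), and did not overlap. The log2 fold change of Hsd17b3 was -0.33 (SE 0.09, 95% interval -0.53 to -0.14; edgeR adjusted p = 0.174), between -0.36 and -0.31 with any library left out. By limma on log2(TPM + 1) it was -0.27 (SE 0.098, limma adjusted p = 0.4).

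**Figure D3:**
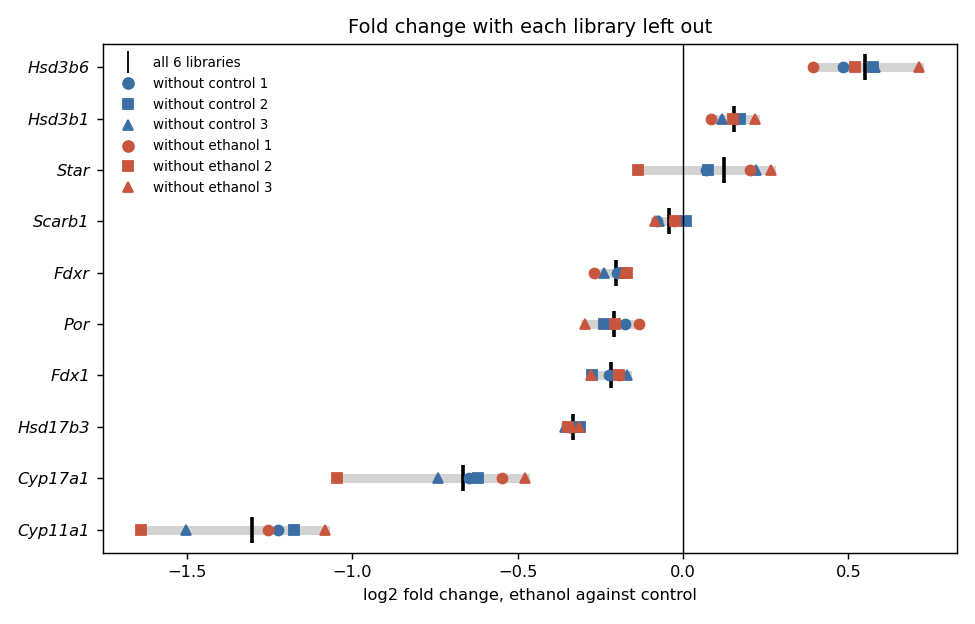
Log2 fold change of each member with all 6 libraries (black bar) and with each library left out (coloured markers), from the same edgeR test. Without ethanol library 2 Cyp11a1 is at -1.64, Cyp17a1 at -1.05 and Star at -0.14, and Hsd17b3 stays between -0.36 and -0.31.

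The libraries of the ethanol diet differed more from one another than the controls did for several members. The coefficient of variation, the SD as a percentage of the mean on TMM-scaled CPM, was 8.54% in controls and 40.3% with ethanol for Cyp17a1, 11.9% and 29.1% for Star, 7.31% and 23.2% for Hsd3b6, and 24.9% and 38.1% for Cyp11a1. For Hsd17b3 it was 2.80% and 3.10%, and for Scarb1 and Fdx1 it was smaller with ethanol. The median over 13229 genes that averaged 5 CPM or more was 6.39% in controls and 6.84% with ethanol. Spread was not tested, since 3 libraries a diet give little information on it.

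The libraries did not keep the same place for every member. In TPM ethanol library 3 was the lowest of the 6 for 5 members, among them Cyp11a1, Cyp17a1 and Star, and control library 2 the highest for 5. Ethanol library 2 had the most Star and, among the ethanol libraries, the most Cyp11a1 and Cyp17a1. Ethanol library 1 had the most Hsd3b1 and Hsd3b6. The sum over the 10 members was 529.9, 584.8 and 481.9 TPM in controls and 501.6, 552.6 and 386.4 TPM with ethanol, so the summed level overlapped between the diets.

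The order of the levels, compared per length in TPM, had Cyp17a1 at the top in controls, at 141.5 ± 19.2, then Hsd3b1 at 82.1 ± 7.36, each apart from the next (SD, n = 3). Cyp11a1, Star, Hsd3b6, Scarb1 and Fdx1 followed between 59.4 and 43.5 TPM, each overlapping its neighbour. Fdxr at 25.9 ± 2.42 and Hsd17b3 at 22.7 ± 1.99 overlapped, and Por was last at 12.5 ± 0.64. With ethanol Hsd3b1 led at 95.2 ± 14.3 TPM, overlapping Cyp17a1 at 92.6 ± 37.99, Hsd3b6 at 71.8 ± 20.2 and Star at 60.6 ± 18.3 followed, and Cyp11a1 stood seventh at 24.7 ± 10.0, overlapping Fdxr.

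Ratios of genes within a library do not depend on how libraries are scaled, and 10 were tested by permuting the diets over the libraries (exact, two-sided). With 3 libraries against 3, no p below 0.1 is possible. The ratio of Cyp11a1 to Star was 1.32, 1.39 and 0.69 in controls and 0.43, 0.43 and 0.34 with ethanol, a log2 difference of -1.45 (exact p = 0.1; 0.25 adjusted over the 10 ratios). Ethanol library 2 had the most Star, which by itself lowers this ratio. Its low ratio therefore does not show that Cyp11a1 was as low there as in the other ethanol libraries. Cyp11a1 relative to Insl3, a hormone made by Leydig cells, differed by -1.31 with no overlap (exact p = 0.1; adjusted 0.25). Relative to its partner Fdx1 it differed by -1.09, with control library 3 at 0.88 below ethanol library 2 at 0.98 (exact p = 0.2; adjusted 0.4).

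Cyp17a1 was lower by less than Cyp11a1. The ratio of Cyp17a1 to Cyp11a1 was 2.23, 2.17 and 3.03 in controls and 3.34, 3.87 and 4.14 with ethanol, a log2 difference of 0.62 with no overlap (exact permutation p = 0.1; adjusted 0.25). Cyp17a1 relative to Por, Insl3 and Hsd17b3 differed by -0.52, -0.69 and -0.40, each with ethanol library 2 within or above the control values (exact permutation p = 0.3, 0.3 and 0.4). The share of Hsd3b6 in the summed TPM of the Hsd3b1 and Hsd3b6 pair was 33.9, 36.5 and 38.46% in controls and 45.3, 43.8 and 38.47% with ethanol. The groups thus touched at control library 3 and ethanol library 3, and the log2 ratio differed by 0.38 (exact permutation p = 0.1; adjusted 0.25). Fdx1 to Fdxr and Star to Scarb1 differed by -0.07 and 0.15, both with overlap (exact permutation p = 0.7 for each).

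**Figure D4:**
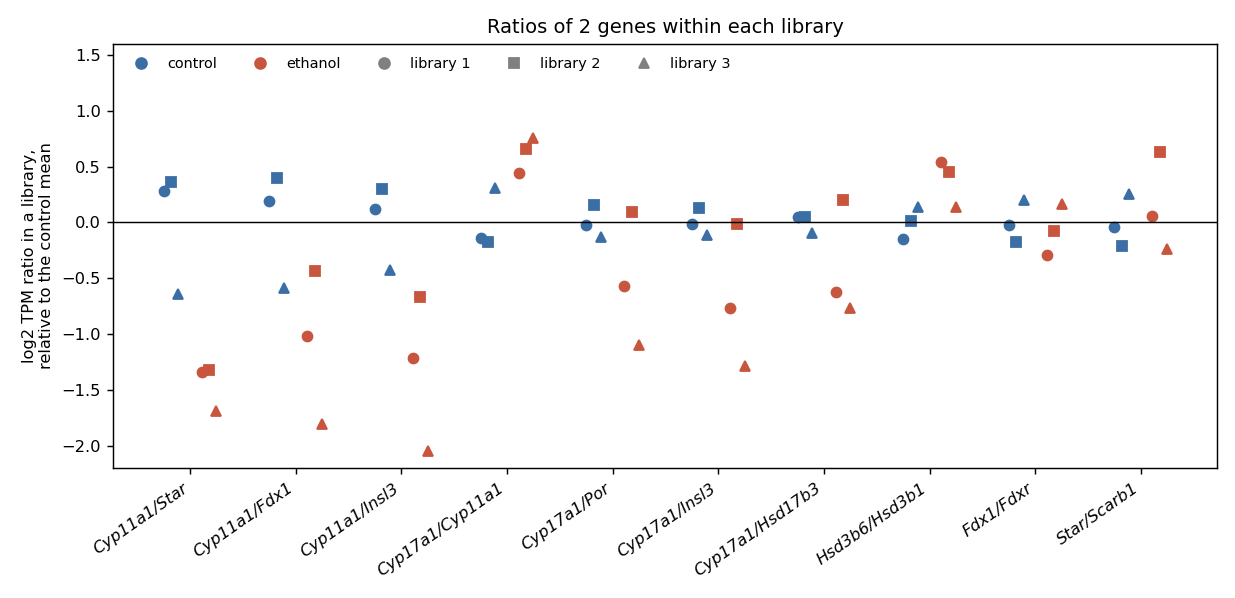
Log2 ratio of the TPM of paired genes within each library, relative to the mean of the 3 controls, with blue for control, red for ethanol and marker shapes for library numbers. Cyp11a1 relative to Star and to Insl3 is lower in all 3 ethanol libraries than in any control, and Cyp17a1 relative to Cyp11a1 is higher.

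Leydig cell markers outside the chain lay closer to their control levels than Cyp11a1, the member furthest from control, but not closer than every member. Insl3 was at 730.0, 728.4 and 656.4 TPM in controls and 688.8, 682.0 and 760.0 TPM with ethanol. The diets overlapped, and the log2 fold change was -0.04 (SE 0.08; adjusted p = 0.872 by edgeR). Lhcgr, the luteinizing hormone receptor, was at 1.56 to 2.46 TPM in controls and 1.56 to 1.98 TPM with ethanol (log2 fold change -0.04, SE 0.18). Of the 7 markers, 4 lay above 0 and 3 below, with a median of 0.12, and 2 had an unadjusted edgeR p under 0.05. Fabp3, a fatty acid carrier, stood at 0.40 (SE 0.09, edgeR adjusted p = 0.153). Aldh1a1, a retinaldehyde dehydrogenase, stood at 0.23 (SE 0.08, edgeR adjusted p = 0.238). On TMM-scaled CPM both were higher in every ethanol library than in any control. Fabp3 lay further from control than Hsd17b3, at -0.33.

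The rest of the pathway, given here as 5 gene lists, held no gene past edgeR's adjusted threshold, and 0 past that of DESeq2. Over all tested genes 48.5% lay below 0. Among 17 genes of hormonal control and transcription, 10 were above 0 and the median log2 fold change was 0.06. By an unadjusted p under 0.05, 3 genes were higher and 0 lower, among them Nr5a1, the nuclear receptor that drives the steroidogenic genes, at 0.29 (SE 0.08; edgeR adjusted p = 0.189), and its partner Gata4 at 0.28 (SE 0.10; edgeR adjusted p = 0.267). Nr5a1 was at 14.7, 15.4 and 14.8 TPM in controls and 18.2, 20.3 and 18.5 TPM with ethanol, above the controls in each. Nr5a1 and Gata4 are also expressed in Sertoli cells, whose summed markers were higher with ethanol. Of those 10 markers 8 lay above 0 and 2 below, the latter being Amh at -1.09 (SE 0.47) and Fshr at -0.09 (SE 0.21). Amh was scarce, at no more than 0.83 TPM in any library, and its diets overlapped. The part of Sertoli cells in the levels of Nr5a1 and Gata4 was not tested. The glucocorticoid receptor Nr3c1 was next, at 0.18 (SE 0.09).

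In the list of cholesterol supply and mitochondrial delivery 15 of 19 genes were above 0, with a median of 0.09. Lipa, the lysosomal acid lipase that frees cholesterol from its esters, was the only gene there with an unadjusted edgeR p under 0.05, at 0.39 (SE 0.14; adjusted p = 0.27). The cholesterol esterifying enzyme Soat1 stood at 0.17 (SE 0.09) and the lipid carrier Stard5 at -0.27 (SE 0.15).

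In the list of electron and cofactor supply 6 of 7 tested genes were above 0, with a median of 0.16. H6pd, which makes NADPH inside the endoplasmic reticulum, stood at 0.25 (SE 0.08; edgeR adjusted p = 0.246) and was the only gene of the list with an unadjusted p under 0.05. G6pdx, its cytosolic counterpart, stood at 0.26 (SE 0.12), and Cyb5a, the cytochrome b5 that aids the lyase reaction of Cyp17a1, at 0.15 (SE 0.08). The lone negative gene was Fdx2, the other ferredoxin, at -0.37 (SE 0.21), where ethanol library 2 was at 9.19 TPM and the other 5 libraries between 16.6 and 19.7 TPM.

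Other dehydrogenases of the 3β and 17β families and the enzymes of androgen conversion had 0 genes with an unadjusted edgeR p under 0.05 among 11 and 7 tested, with medians of 0.06 and 0.04. Of the dehydrogenases the 4 of smallest p were Hsd17b1 at 0.54 (SE 0.25), Hsd3b4 at -0.61 (SE 0.31), Hsd17b10 at 0.22 (SE 0.12) and Hsd17b7 at 0.24 (SE 0.14). Hsd17b1, an estrogen-forming dehydrogenase, and Hsd3b4 were both scarce, at no more than 1.25 and 1.08 TPM in any library. In androgen conversion the aromatase gene Cyp19a1, which turns androgens into estrogens, stood at 0.31 (SE 0.14; edgeR adjusted p = 0.388), Srd5a1, which makes dihydrotestosterone, at -0.14 (SE 0.13), Akr1c14 at 0.16 (SE 0.15) and Sult1e1 at -0.18 (SE 0.18).

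**Figure D5:**
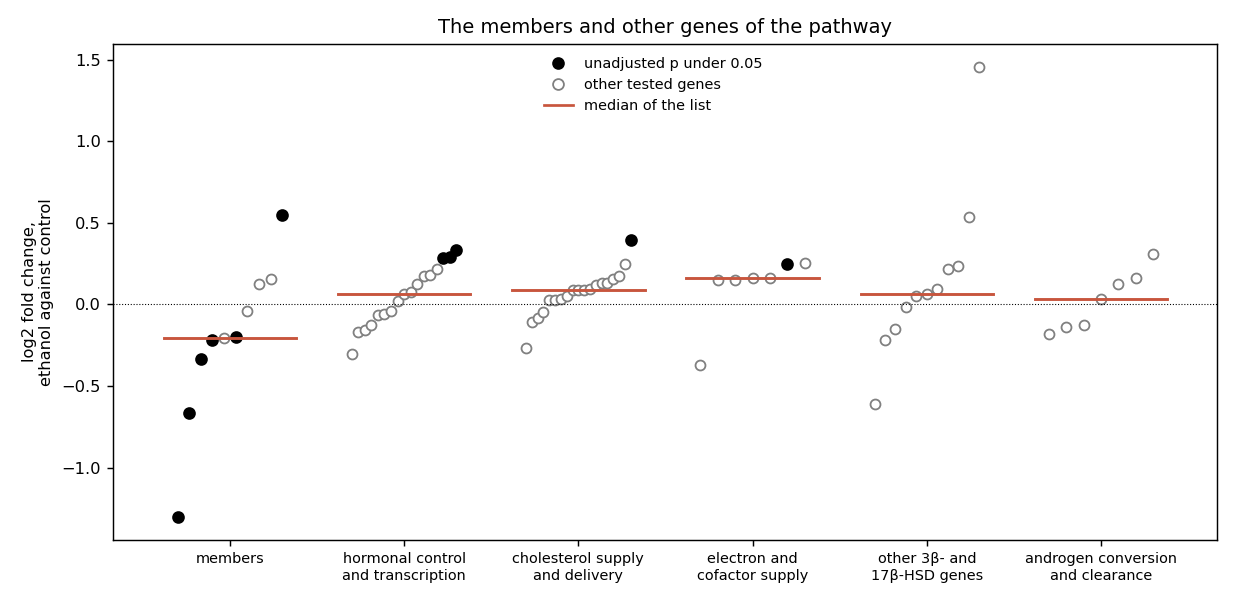
Log2 fold change, ethanol against control, of the 10 members and of the tested genes of the 5 other lists, each point a gene, filled where the unadjusted edgeR p was under 0.05, with the median of each list as a line. The members spread from -1.30 to 0.55 around a median of -0.20, and the medians of the other lists lie between 0.04 and 0.16.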

How the data were processed

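Read counts per gene were deposited by the authors as whole numbers without normalization, beside FPKM and TPM, the length-scaled values they computed, per the file headers. The submitters' processing notes name HISAT2 and the mm10 build. Libraries came from a stranded total RNA kit after removal of ribosomal RNA, per the labels' protocols. How reads were assigned to genes, and with which strand setting, is not given in the sources used here. FPKM values were not used, and 0 sample columns lay outside the 6 libraries.

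Diets were compared with edgeR 4.0.16 in R 4.3.3 on the counts of all genes: filterByExpr kept 25073 of 45777 genes, TMM scaled the libraries, and the quasi-likelihood F-test had no covariate and Benjamini-Hochberg adjustment at 0.05. The biological coefficient of variation was 0.102. A standard error is the fold change divided by the root of F. Ratios used TPM. No pair among the 15 agreed within sampling noise (lowest chi-square per gene 7.70). Coordinates and promoters came from RefSeq on GRCm38.p6, strands and transcripts from GENCODE M21, with alignments by Biopython 1.88. The procedure was tested on simulated data.

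Alternatives were RLE, upper-quartile and no scaling factors, other filters, DESeq2 1.42.0, limma 3.58.1 by voom and on log2(TPM + 1) and log2(TPM + 0.1), a replicate block, and each library left out. All members and up to 4 genes of smallest edgeR p per list were named, except that some list genes are not reported here. The members and lists were chosen with earlier results of these data known.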

Additional observations from a re-analysis of the deposited data

How the results depend on the processing

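The count of genes past an adjusted p of 0.05, 0 in the edgeR test as reported, was 2 with upper-quartile factors, 2 with a filter of 1 CPM in 3 libraries, 5 with limma-voom, 357 with DESeq2 and 0 to 3 with each library left out, where an unadjusted edgeR p under 0.05 held for 3343 genes. The cause was not tested. Under DESeq2, Cyp11a1 at -1.31 and Hsd3b6 at 0.54 passed. With the replicate block 15 genes passed, among them Cyp11a1 at -1.34 (edgeR adjusted p = 0.00126). Whether equal numbers pair the samples is not stated, and 3 libraries a diet cannot settle it. Deviations of libraries with the same number correlated at -0.17, 0.01 and 0.44, and 2 of 6 libraries correlated best with their own number. The log2 fold change of Cyp17a1 ranged from -1.05 to -0.48 over the fits that lack 1 library, and it passed without ethanol library 2. Signs turned only with a library left out: the log2 fold change of Star lay between -0.14 and 0.27 and that of Scarb1 between -0.084 and 0.0085, the log2 ratio of Fdx1 to Fdxr between -0.19 and 0.043, and that of Star to Scarb1 between -0.090 and 0.34. The other members kept their direction and stayed short of the threshold in the settings run. The median of all genes was 0.058 on log2(TPM + 0.1) against 0.0065, and that of the members -0.15 against -0.20. The members had 478 to 7267 reads a library, and their precision is limited by 3 libraries a diet and, for those with the fewest reads such as Hsd17b3, also by counting.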

Other observations

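Akr1b7, looked at among adrenal cortex markers and singled out after its values were seen, had 14, 14 and 10 reads in the control libraries and 0, 0 and 0 in the ethanol libraries. Its product, first described in the mouse vas deferens, reduces isocaproaldehyde, the by-product that Cyp11a1 releases when it cuts cholesterol. Against an assumed floor of 3 counts over the ethanol group, its pooled control level of 0.282 CPM was 11.6-fold higher. That ratio rests on 38 control reads, has no measure of error and is not a lower bound. The adjusted p of Akr1b7 by edgeR was 0.106, short of the threshold, and no read was counted in 3 of 3 ethanol libraries. The 6 epididymis markers summed to 0.242 to 0.332 TPM in controls and 0 to 0.152 TPM with ethanol, and the part of tissue attached to the testis in this difference was not tested. The other adrenal marker with enough reads to be tested was Cyp21a1, at 1.22 to 2.78 TPM in controls and 1.43 to 2.06 TPM with ethanol.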
